A study of Homo sapiens with 4 samples.

Results

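Chromatin accessibility was compared between AMO1 cells carrying a PHF19 vector and AMO1 cells carrying the empty vector. AMO1 is a long-established line of multiple myeloma, the cancer of antibody-secreting plasma cells. In ATAC-seq, the assay used, a transposase inserts adapters where DNA is accessible, so that fragments pile up over open promoters and enhancers. The study holds 4 libraries, and all 4 enter the comparison: AMO1 with empty PCDH vector (genotype given as WT), AMO1 with PHF19 overexpression, and the same 2 vectors in libraries whose title has the prefix IFN. What the prefix stands for is not stated, and the labels give all 4 libraries the same growth medium and transfection protocol. The 2 vectors therefore form 2 pairs, one without the prefix and one with it. Each combination of vector and prefix is 1 library, and the labels do not say whether the transfected cells were a pool or a clone, or whether the 2 libraries of a vector came from separate transfections. The p-values below set the difference between the vectors against a spread. That spread comes only from how far the 2 pairs differed from each other, pooled over many regions, and may be technical.

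Peaks of the 4 lists on chromosomes 1 to 22 that overlapped were merged into 71853 regions. The members compared are the 34809 regions with a peak in all 4 libraries, of which 10536 were gene-near, meaning within 1000 bp of either end of a protein-coding gene, and 24273 were distal, meaning anywhere else. The height of a region is the largest number of fragments over one of its summits per M (mega) fragments of that library. Depth was 27.4 M fragments for empty vector, 18.2 M for PHF19 overexpression, 65.9 M for IFN-prefixed empty vector and 16.4 M for IFN-prefixed PHF19 overexpression. Both PHF19 libraries were thus shallower than both empty vector libraries, and depth and vector cannot be told apart. Log2 heights were centred on the median of each library and fitted in limma with the vector and the prefix as terms. A region was called higher or lower when its two-sided p, adjusted by the Benjamini-Hochberg method over all 34809 regions, was under 0.05. Differences are PHF19 overexpression minus empty vector on the log2 scale, given with the standard error (SE) of the fit.

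PHF19 is a Polycomb-like protein. It binds Polycomb repressive complex 2 (PRC2), whose EZH2 subunit methylates lysine 27 of histone H3 and so helps to keep developmental regulators such as the HOX genes silent. PHF19 reads methylated lysine 36 of histone H3 through its Tudor domain and helps to bring PRC2 to unmethylated CpG-rich promoters, while PRC1 compacts the marked chromatin and the Trithorax group acts against both. In myeloma, high PHF19 expression is known as a mark of aggressive disease.

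Promoters differ in CpG content, the property by which Polycomb-like proteins are known to find their targets. The 250 bases before the transcription start are therefore shown for 3 genes whose start region was called higher (IRF1, SNX9 and MSX1) and 3 whose start region was called lower (FOXD1, IL23A and ITGB7). They are read 5′ to 3′ on the gene's strand from the RefSeq promoter table of GRCh38.p14, and capitals mark each CpG.
IRF1, chr5:132490774-132491023, minus strand: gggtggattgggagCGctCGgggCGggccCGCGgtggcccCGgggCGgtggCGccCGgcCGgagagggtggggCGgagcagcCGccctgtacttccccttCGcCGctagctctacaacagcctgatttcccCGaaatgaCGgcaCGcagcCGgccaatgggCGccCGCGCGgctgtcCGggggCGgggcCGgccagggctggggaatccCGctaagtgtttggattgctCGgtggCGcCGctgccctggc
SNX9, chr6:157822996-157823245, plus strand: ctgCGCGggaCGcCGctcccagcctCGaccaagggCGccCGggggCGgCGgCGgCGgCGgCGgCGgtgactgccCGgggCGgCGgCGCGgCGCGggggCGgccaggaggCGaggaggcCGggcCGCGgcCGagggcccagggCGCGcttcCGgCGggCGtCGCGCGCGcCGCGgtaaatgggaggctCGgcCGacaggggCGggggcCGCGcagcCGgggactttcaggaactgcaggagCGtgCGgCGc
MSX1, chr4:4859415-4859664, plus strand: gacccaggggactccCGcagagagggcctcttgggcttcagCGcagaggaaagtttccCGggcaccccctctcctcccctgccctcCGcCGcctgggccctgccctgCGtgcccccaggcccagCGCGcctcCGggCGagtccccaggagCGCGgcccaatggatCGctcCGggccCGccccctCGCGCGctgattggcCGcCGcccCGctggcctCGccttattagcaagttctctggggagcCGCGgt
FOXD1, chr5:73448778-73449027, minus strand: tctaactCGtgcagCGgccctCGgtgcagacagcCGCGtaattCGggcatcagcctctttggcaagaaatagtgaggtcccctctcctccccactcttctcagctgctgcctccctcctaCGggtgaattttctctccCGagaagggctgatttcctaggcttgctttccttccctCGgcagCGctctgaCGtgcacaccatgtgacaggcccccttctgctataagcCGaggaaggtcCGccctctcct
IL23A, chr12:56338634-56338883, plus strand: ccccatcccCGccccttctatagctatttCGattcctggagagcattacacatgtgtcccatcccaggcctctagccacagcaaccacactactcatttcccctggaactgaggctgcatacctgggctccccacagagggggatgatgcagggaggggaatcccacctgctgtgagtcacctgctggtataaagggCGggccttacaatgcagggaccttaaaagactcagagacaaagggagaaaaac
ITGB7, chr12:53207252-53207501, minus strand: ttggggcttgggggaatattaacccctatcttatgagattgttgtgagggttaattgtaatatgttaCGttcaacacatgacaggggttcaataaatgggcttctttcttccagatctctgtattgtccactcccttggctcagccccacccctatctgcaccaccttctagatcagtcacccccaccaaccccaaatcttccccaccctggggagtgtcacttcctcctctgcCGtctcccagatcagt
These stretches hold 29, 47 and 24 CpG in IRF1, SNX9 and MSX1, against 13, 3 and 2 in FOXD1, IL23A and ITGB7. These 6 were picked for illustration and are farther apart than start regions at large: over all promoter windows of 300 bases in called regions, the median was 29 CpG where the region rose and 23 where it fell. Regions with 0 to 4 CpG in the window rose in 11.2% of cases, against 6.4% of those with 25 or more, and the start region of TNFRSF1A, with 4 CpG in its 250 bases, was called higher.

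The labels were first checked at PHF19 itself (chromosome 9, 120855651 to 120904128, minus strand). A region inside the gene at 120857950 to 120858284 had a peak in both PHF19 libraries, with 144 fragments (7.9 per M) without the prefix and 120 fragments (7.33 per M) with it. Neither empty vector library had a peak there. The other 4 regions of the gene were present in all libraries and differed by -0.02 to -0.22, with adjusted p from 0.36 to 0.96 in limma. ATAC-seq does not measure RNA or protein, so the level of PHF19 was not measured here.

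Markers of the cell type were counted as genes with a gene-near peak. All 11 plasma cell markers had one in every library, with summed heights of 370, 393, 263 and 427 per M in the libraries in the order of the depths above. SDC1 alone gave 246, 295, 158 and 314 of these, so the sums mostly reflect 1 gene. Of 10 B cell markers, 4 to 6 had a peak, among them SPIB in every library (5.25 to 8.06 per M), and PAX5, MS4A1 and CD79A had none in any library. Of 9 myeloid markers, 3 had one in each library, among them SPI1 (1.04 to 3.4 per M), and CSF1R, CD14, LYZ and MPO had none. Of 10 T and NK cell markers, 5, 4, 8 and 4 had one, the highest count being in the deepest library. Of 9 stromal and epithelial markers, 6 or 7 had one. In a single cell line, a peak at a marker does not show that another cell type was present, and its part in the results was not tested.

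Accessibility was higher at 3384 of 34809 regions (9.72%) and lower at 3068 (8.81%) with PHF19 overexpression, so that 18.5% were called in either direction. The calls were unevenly spread over gene-near and distal regions. Gene-near regions rose in 858 cases (8.14%) and fell in 304 (2.89%), while distal regions rose in 2526 cases (10.4%) and fell in 2764 (11.4%). Distal regions were 69.7% of those tested, 74.6% of those that rose and 90.1% of those that fell. Of the 6452 called regions, 6441 moved in the same direction in both pairs, and the sign was shared at 67.4% of all regions. The fitted difference averages the pairs, so a call favours regions where they agree, and the count is no separate check. At an unadjusted p under 0.05, 10322 regions passed. Both PHF19 libraries lay above both empty vector libraries, on the centred scale, at 30.0% of all regions and below both at 22.4%, together 52.4%. These shares were 25.1%, 12.4% and 37.5% of gene-near regions and 32.1%, 26.7% and 58.8% of distal regions. Calls in either direction were 11.0% of gene-near and 21.8% of distal regions.

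The excess of higher over lower calls near genes rested on which control library was used. Higher calls were 73.8% of the called gene-near regions in the fit of all 4 libraries. They were 90.7% without the empty vector library and 44.1% without the IFN empty vector library, which left 352 higher against 447 lower. The median gene-near difference was -0.06 in the pair without the prefix and 0.13 in the IFN-prefixed pair. The distal median was 0.03 and 0.05 in the same pairs. The gene-near median minus the distal median was -0.02 over both pairs, -0.09 without the prefix and 0.08 with it. A shift of all gene-near regions relative to distal ones was thus not shared by the pairs, and an exact permutation test of 2 libraries against 2 cannot give a p below 0.333.

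**Figure D1:**
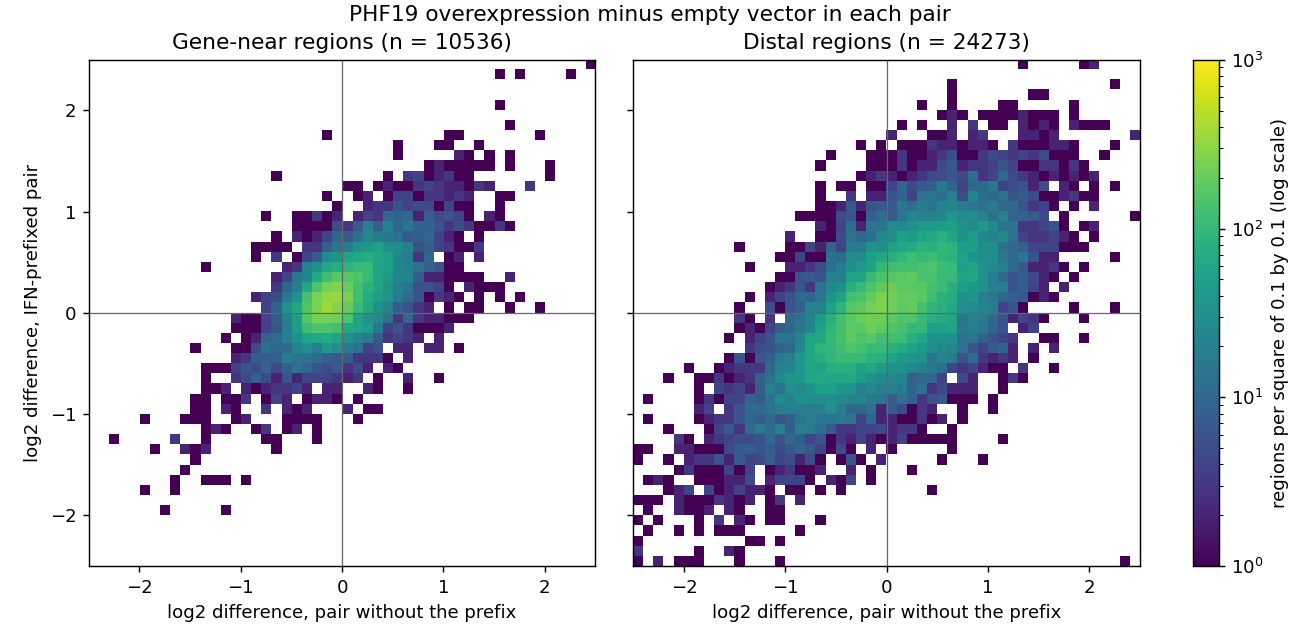
Log2 difference, PHF19 overexpression minus empty vector, in the pair without the prefix (x axis) and in the IFN-prefixed pair (y axis), for gene-near regions (left) and distal regions (right). Colour gives the number of regions per square of 0.1 by 0.1 on a log scale, with values past 2.5 placed in the outermost squares; the distal cloud is wider, with an SD of 0.5 against 0.31 for gene-near regions.

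Distal differences were also larger. The SD of the log2 difference was 0.5 over distal and 0.31 over gene-near regions, with median SEs of 0.22 and 0.16. Changes of at least 2-fold were called higher at 587 and lower at 637 distal regions, against 110 and 44 gene-near regions. The sign was the same in both pairs at 71.5% of distal and 57.9% of gene-near regions. The correlation between the pairs over regions was 0.65 distal and 0.61 gene-near, as a description of regions that share their libraries.

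Distal regions are lower than gene-near ones, with a median height of 1.9 against 6.77 per M, so both were compared at matched height. Among regions with a mean height of 4 to 16 per M, 960 of 5034 distal regions fell (19.1%) and 390 rose (7.75%). Of 7204 gene-near regions in that range, 169 fell (2.35%) and 448 rose (6.22%). The share that fell was higher among distal than among gene-near regions under every one of the 16 other settings run on this range, from 6.0% to 25.5% distal against 0.43% to 4.75% gene-near. In the class from 4 to 8 per M, the distal minus gene-near median was -0.13, with -0.09 in the pair without the prefix and -0.17 in the other. This order was therefore the same in both pairs.

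Calls also varied with height. Of the 4690 regions under 1 per M, 12.7% rose and 1.92% fell, with a median of 0.27. These regions had to reach the peak threshold in all 4 libraries, including the shallower PHF19 libraries, and the part of that requirement in the excess was not tested. Removing the trend of the difference with height moved the higher share of distal calls from 47.8% to 37.7%, and left the higher share of gene-near calls at 73.6%.

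**Figure D2:**
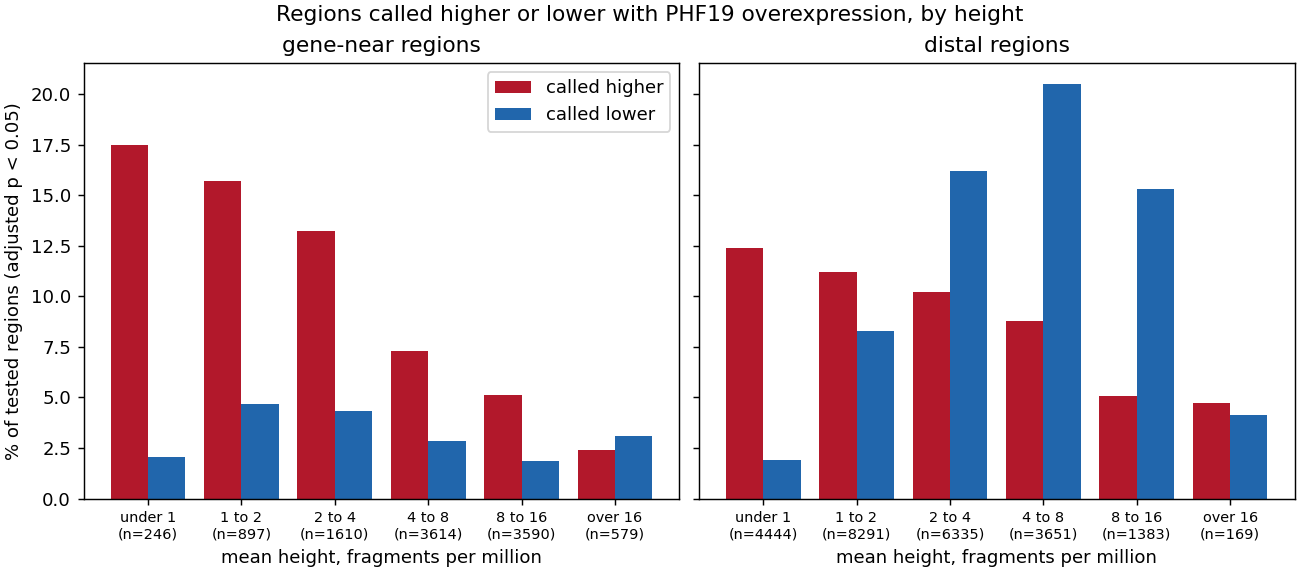
Percent of tested regions called higher (red) and lower (blue) with PHF19 overexpression, by mean height in fragments per M, for gene-near (left) and distal (right) regions; n is the number of regions in a class. Distal regions of 4 to 8 per M fell in 20.5% of cases, against 2.82% of gene-near regions of the same height.

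Between genes, the share of regions that fell was higher farther from a gene. It was 9.38% of 3050 regions up to 10 kb from the nearest gene, 11.1% of 6115 at 10 to 100 kb and 14% of 2848 at more than 100 kb. Their median heights were 2.15, 1.87 and 1.49 per M, and 9.54%, 10.7% and 10.6% of them rose. Distal regions inside a gene body fell in 11.4% of 12260 cases and rose in 10.4%. Among gene-near regions, those within 1 kb of a transcription start rose in 6.55% of 7684 cases. The other gene-near regions, at a far end or at a gene whose start the table does not give, rose in 12.4% of 2852 cases. They were also lower, with a median height of 4.64 against 7.47 per M.

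The gene-near rise with the smallest adjusted p was at NKX2-5. The regions described here are among the 12 with the smallest adjusted p in each direction. They were chosen from these same 4 libraries with the same direction required in both pairs, so the separation of the groups follows from the choice. NKX2-5 encodes a homeobox factor of heart development that is silent in most adult cells. Its region (chromosome 5, 173234490 to 173235906) had heights of 0.731 and 0.516 in the empty vector libraries and 5.05 and 4.95 in the PHF19 libraries, in each case without and with the prefix. Both PHF19 libraries were far above both controls, a difference of 3.05 (SE 0.23, 8.3-fold, adjusted p = 5e-36 in limma).

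The region of VAX2, a homeobox factor of the developing eye, measured 2.05 and 2.06 in the controls against 5.05 and 6.05, a difference of 1.46 (SE 0.18). The 2 groups did not overlap there. SNCB, which encodes beta-synuclein, rose by 1.77 (SE 0.19), from 1.79 and 1.27 to 4.72 and 5.43.

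A run of neighbouring start regions on chromosome 5 rose together. SLC22A5 (a carnitine transporter), IRF1, KIF3A (a kinesin motor subunit), SHROOM1 and AFF4 (a scaffold of the super elongation complex) lie between 132369307 and 132964062 and make up 5 of the 12 named rises. IRF1 is a transcription factor that switches on interferon-response genes. Its start region measured 5.66 and 4.37 in the controls and 10.2 and 12 in the PHF19 libraries, a difference of 1.18 (SE 0.15, adjusted p = 1.7e-12 in limma). The other 4 rose by 1.13 to 1.27. The whole neighbourhood was raised: the median difference of all regions within 2.5 Mb on either side was 0.39 to 0.41 there. After its removal IRF1 was at 0.79 (adjusted p = 2.5e-08 in limma). The other 4 starts were at 0.72 to 0.88 by the same measure, so the rise was shared by the run and not particular to IRF1. Both pairs showed the rise, 0.95 without the prefix and 1.41 with it.

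SNX9, a sorting nexin gene of endocytosis whose CpG-dense promoter is printed above, measured 0.877 and 1.0 in the controls and 3.46 and 2.87 in the PHF19 libraries, a difference of 1.78 (SE 0.23, adjusted p = 4.2e-12 in limma). The local median around it was 0.05. PRKAG2, which encodes a regulatory subunit of AMP-activated kinase, rose by 1.86 (SE 0.24) at a region 631 bp inside its start. CIBAR1, a BAR-domain protein of the ciliary base on chromosome 8, rose by 1.34 (SE 0.18) in a stretch with a local median of 0.34.

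CD28, IL23A and CCL3L3 were among the 12 gene-near falls with the smallest adjusted p. CD28, the costimulatory receptor of T cells that plasma cells also express, fell from 9.06 and 7.57 in the controls to 2.85 and 2.63 in the PHF19 libraries, a difference of -1.57 (SE 0.16, adjusted p = 6.1e-20 in limma). Its region (chromosome 2, 203705215 to 203707124) covers the transcription start, and the 2 groups did not overlap. IL23A, which encodes the p19 subunit of interleukin 23, measured 6.25 and 5.86 against 2.14 and 2.26, a difference of -1.43 (SE 0.17, adjusted p = 2.2e-14 in limma). CCL3L3, a chemokine gene, fell by 1.88 (SE 0.17), but it has near-identical copies between which reads may be split, so its value is uncertain. The local medians at these 3 genes lay between -0.06 and 0.21, and each difference was -1.45 or further below 0 after their removal.

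FOXD1, a forkhead factor of kidney stroma, showed the most significant gene-near fall. Its region (chromosome 5, 73446749 to 73449695) measured 17.6 and 13.9 in the controls and 5.32 and 4.27 in the PHF19 libraries, a difference of -1.68 (SE 0.15, adjusted p = 7.4e-25 in limma). The surrounding regions fell as well, with a local median of -0.74, and with it removed FOXD1 was at -0.94 (adjusted p = 1.2e-13). AP3B1, an adaptor subunit of vesicle sorting, fell by 1.22 on the same chromosome. With the local median removed, AP3B1 was at -0.32 (adjusted p = 0.039 in limma).

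The tallest of these regions lies beside F2R, the thrombin receptor gene. Its heights were 50.1 and 39.8 in the controls and 13.3 and 15.6 in the PHF19 libraries, a difference of -1.6 (SE 0.21, adjusted p = 2.3e-12 in limma). Leaving out either PHF19 library ended this call, with adjusted p of 0.18 without PHF19 overexpression and 0.13 without IFN PHF19 overexpression, although the difference stayed at -1.55 and -1.66. In these 3-library fits the prefix has no term and the lone sample is assumed to vary like the others. No other of the 24 named gene-near calls was lost when a library was left out.

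Several falls lay at the far end of a gene and not at its start. The region of KIF3B, the motor partner of KIF3A, lies inside the gene 391 bp from its far end and 55159 bp from its start. It measured 7.53 and 6.46 against 2.19 and 2.75, a difference of -1.48 (SE 0.16). PCIF1, which methylates the adenosine next to the mRNA cap, fell by 1.45 (SE 0.18) at a region 944 bp inside its far end. ANKRD16 fell by 1.42 at a region 433 bp inside its far end. The start regions of these genes did not follow, with differences of 0.15 at KIF3B (adjusted p = 0.63), 0.1 at PCIF1 (0.74) and 0.1 at ANKRD16 (0.79). KREMEN1, a receptor for Dickkopf inhibitors of Wnt signalling, fell by 1.63 at a region 379 bp inside one end. IRAG2 fell by 1.29 at a region 54091 bp from the start the promoter table gives, and its start region fell as well, by 0.57 (adjusted p = 0.005 in limma).

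**Figure D3:**
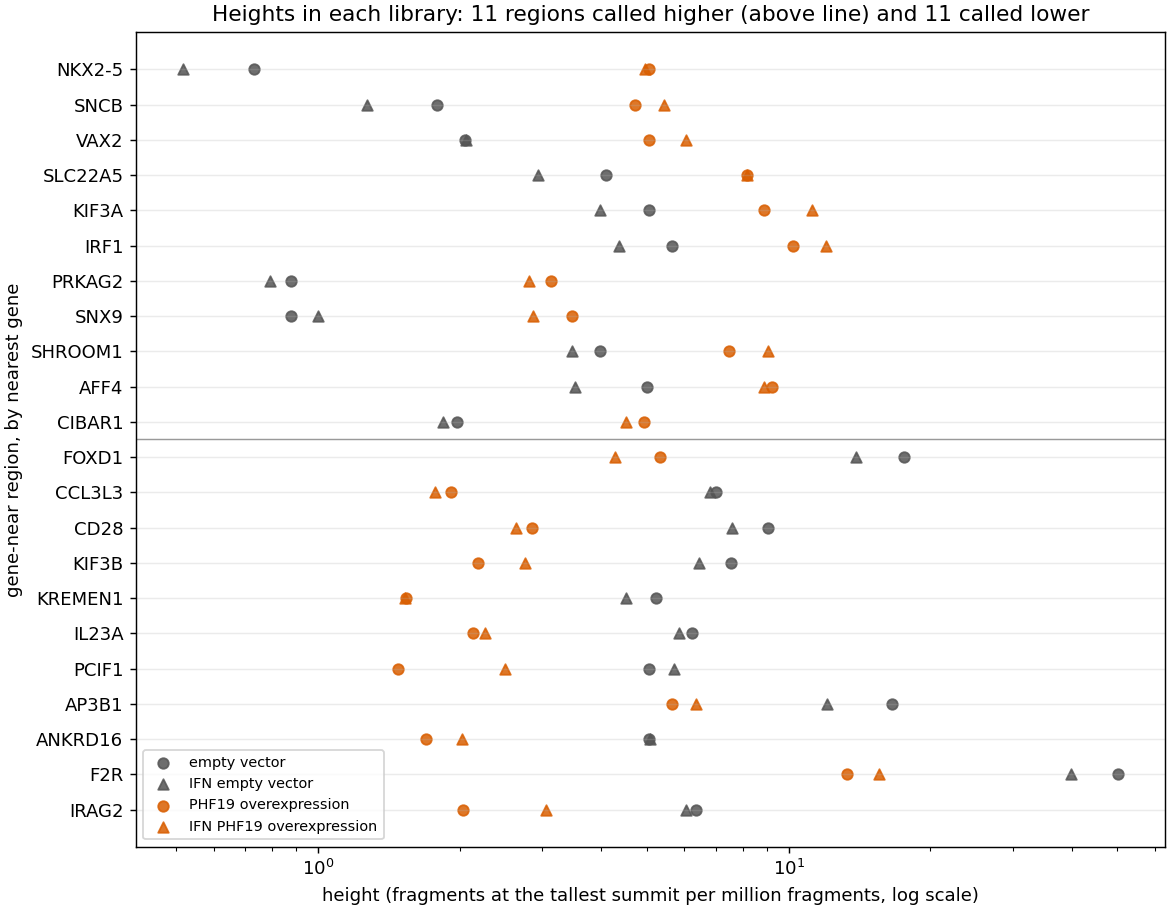
Height in fragments per M (log axis) in each of the 4 libraries for 22 gene-near regions among those with the smallest adjusted p, with empty vector libraries in grey, PHF19 overexpression in orange, circles for the pair without the prefix and triangles for the IFN-prefixed pair. Both orange points lie to the right of both grey points in the 11 upper rows and to the left in the 11 lower rows. The regions were chosen by these same values, so this separation follows from the choice.

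Called regions of the gene lists often rested on single libraries. Of the 64 called regions on the 22 lists, 13 kept direction and call without each library in turn, 37 kept them with the local median removed, and 9 kept them under every setting run. HOXC13, PHC1, CD28, SPI1, IRF1, TNFRSF1A, IL6R and PDGFRA, all described below, are among the 9. Only settings that tested a region count here. PHC1, IRF1, TNFRSF1A, IL6R and PDGFRA have local medians past 0.3, so the setting that drops such regions did not test them. A called list region can lie at either end of its gene. The start was, for example, 91435 bp away at PAX2, 39286 bp at SLAMF1, 14027 bp at PTPN6 and 12418 bp at SPIB. It was 12289 bp away at USP7, 11223 bp at BMI1, 7421 bp at HOXA10 and 7302 bp at EGR2. Regions of CD28, IRF1 and IL6R cover the start.

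Polycomb target genes, the developmental regulators that PRC2 is known to silence, rose more often than they fell. Of 82 genes on the list, 34 had a gene-near peak in at least 1 library and 26 had one in all 4, at 28 regions. Of these regions 7 rose (25%), 1 fell (3.57%) and 20 were not called, beside 8.14% and 2.89% of all gene-near regions. The list's median was 0.26 (0.32 without the prefix and 0.27 with it), beside 0.04 for all gene-near regions. Leaving out 1 library left 4 or 5 higher regions and 0 or 1 lower, 4 higher being reached without any 1 of 3 libraries (empty vector, PHF19 overexpression or IFN PHF19 overexpression). With the local median removed, 6 rose and 1 fell. Most genes of the list had no gene-near peak in any library and are not described by these values.

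The HOX genes made up 4 of these 7 rises. HOXC13, the last gene of its cluster, measured 1.86 and 1.81 in the controls and 4.17 and 3.42 in the PHF19 libraries, a difference of 1.07 (SE 0.19, adjusted p = 1.8e-06 in limma). HOXD13, a regulator of limb and digit patterning, rose at 2 regions, by 0.99 and 0.45. The first of these measured 1.06 and 1.58 against 3.13 and 2.02, and its call was lost without empty vector (adjusted p = 0.17) and without PHF19 overexpression (adjusted p = 0.1). The second was not called with the local median removed (0.18, adjusted p = 0.39). HOXA10 rose by 0.78 at one region, a call lost without empty vector (adjusted p = 0.48) and without PHF19 overexpression (0.12), while another region stood at 0.16 (adjusted p = 0.7).

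Outside the HOX clusters, MSX1 and PAX2 rose and NR2F1 fell. MSX1, a homeobox factor of craniofacial development, measured 3.29 and 2.96 against 5.38 and 4.89, a difference of 0.75 (SE 0.17, adjusted p = 0.00018 in limma). It lies in a raised stretch with a local median of 0.54, above which it stood by 0.21 (adjusted p = 0.45). PAX2, a paired-box factor of kidney development, rose by 0.65, with values of 3.33 and 2.34 against 3.57 and 5.13. Its call rested on the IFN-prefixed pair: without IFN empty vector the adjusted p was 0.27, and without IFN PHF19 overexpression it was 0.19. NR2F1, an orphan nuclear receptor, fell by 0.56, a call lost without empty vector (adjusted p = 0.37), without IFN empty vector (0.08) and without IFN PHF19 overexpression (0.77). NR2F1 was at -0.28 with the local median removed (adjusted p = 0.26).

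Among genes of the Polycomb machinery itself, 12 regions belonged to PRC2 subunits and partners. Of these 0 rose and 1 fell (8.33%, beside 2.89% of all gene-near regions), with a median of -0.12. The fall was at the far end of EED, the subunit that binds trimethylated lysine 27, 41932 bp from its start. That region measured 5.92 and 5.02 against 2.8 and 4.03, a difference of -0.67 (SE 0.16, adjusted p = 0.00071 in limma). That call was lost without empty vector (adjusted p = 0.1) and without PHF19 overexpression (0.2), and a separate region at EED stood at -0.1. EZH2, the catalytic subunit, stood at -0.03 (adjusted p = 0.92), SUZ12 at -0.31 (adjusted p = 0.37) and JARID2 at 0.07 (adjusted p = 0.83).

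Of 25 regions of PRC1 genes, 3 rose (12%) and 1 fell (4%), beside 8.14% and 2.89% of all gene-near regions. PCGF3, a subunit of variant PRC1, rose by 0.88 (SE 0.15), from 5.59 and 4.43 to 9.55 and 8.43. It lies in a raised stretch and was not called with the local median removed (0.33, adjusted p = 0.073 in limma). PHC1, a canonical PRC1 subunit, rose by 0.79 and kept its call there (0.43, adjusted p = 0.044). BMI1 rose by 1.0 at a low region, a call lost without empty vector (adjusted p = 0.22), IFN empty vector (0.067) or IFN PHF19 overexpression (0.48), and its other region stood at 0.06. The fall was at USP7, a deubiquitinase, by 0.53, a call lost without any 1 of the 4 libraries (adjusted p from 0.053 to 0.59). Of 35 regions of Trithorax and demethylase genes, 5 rose (14.3%) and 0 fell: 2 at NSD3, 2 at MEN1 and 1 at NSD2. None of the 5 was called without PHF19 overexpression, while 6 regions of the list rose without empty vector. NSD2, the lysine 36 methyltransferase that translocation activates in some myelomas, rose by 0.52, but it turned to -0.05 with the local median removed (adjusted p = 0.85).

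**Figure D4:**
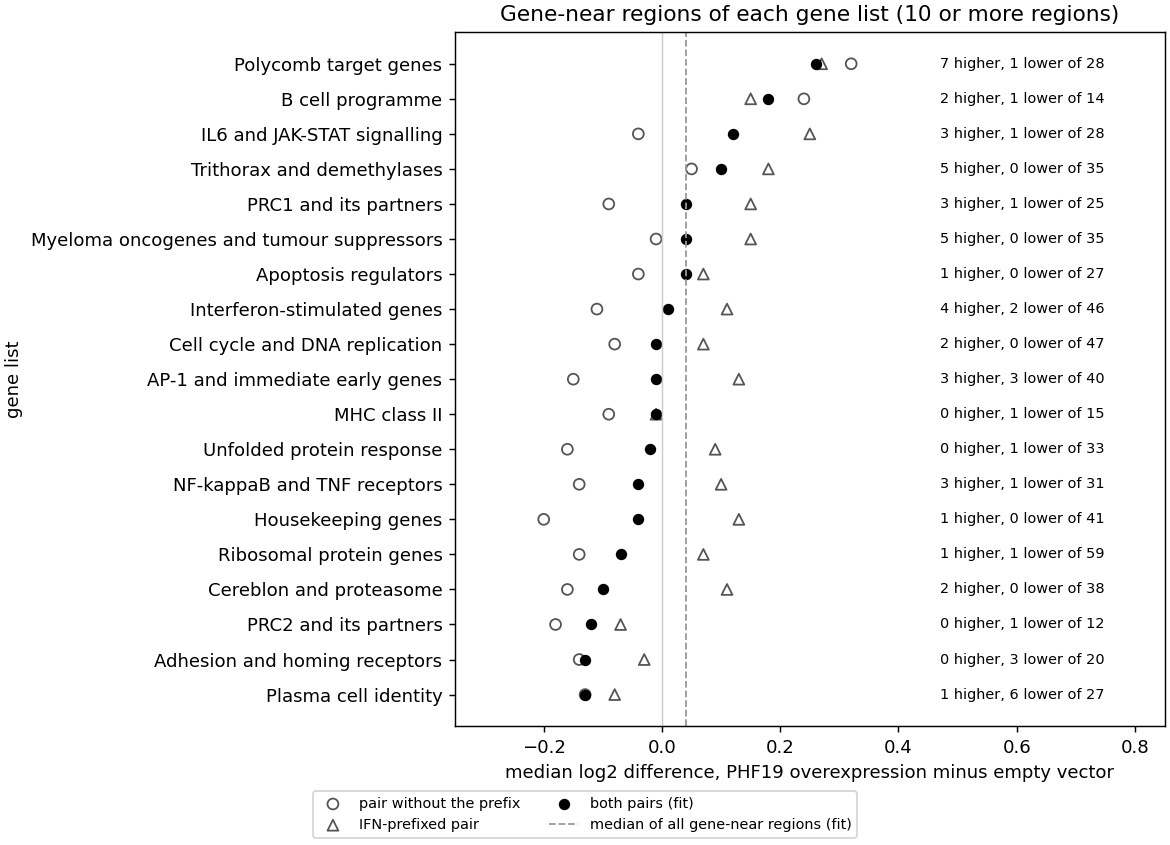
Median log2 difference, PHF19 overexpression minus empty vector, over the gene-near regions of each gene list with 10 or more regions. Filled circles are the fit of both pairs, open circles the pair without the prefix and open triangles the IFN-prefixed pair; the dashed line is the median of all gene-near regions (0.04), the counts give called regions, and the Polycomb target list (0.26) lies farthest above that line.

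Plasma cell genes fell more often than they rose in the fit of all 4 libraries, but not without the empty vector library. Of 27 regions, 6 fell (22.2%) and 1 rose (3.7%), beside 2.89% and 8.14% of all gene-near regions, with a median of -0.13 beside 0.04. Without empty vector, 1 fell and 3 rose, with a median of 0.05. Besides CD28, the falls were at TNFRSF13B and CXCR4, receptors of survival and homing signals, at IRF4, the transcription factor on which myeloma cells depend, and at SLAMF7 and FCRL5, surface receptors used as therapeutic targets. IRF4 measured 18.9 and 13.2 in the controls and 10.6 and 12 in the PHF19 libraries, a difference of -0.46 (SE 0.16, adjusted p = 0.034 in limma). Apart from CD28, these falls were between -0.46 and -0.69. SLAMF1 rose by 0.62. Other identity genes were not called, such as PRDM1 at -0.23 (adjusted p = 0.62) and XBP1 at 0.04 (adjusted p = 0.91).

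The plasma cell count depended on single libraries and on centring. It was 1 lower and 0 higher without IFN PHF19 overexpression (median 0.0), 2 lower and 1 higher without PHF19 overexpression, and 5 lower and 2 higher without IFN empty vector. It was 7 lower and 0 higher with the local median removed. It was also 1 lower when heights were not centred, and 3 lower when regions were weighted by fragments or the prefix term was dropped. CD28 kept its call under each of these settings, and the other 5 falls lost theirs without empty vector, with adjusted p from 0.2 to 0.39. The TNFRSF13B call was also lost without PHF19 overexpression (adjusted p = 0.31) or IFN PHF19 overexpression (0.15), and the SLAMF1 call without empty vector (0.33) or IFN PHF19 overexpression (0.2). SLAMF1 was at 0.27 with the local median removed (adjusted p = 0.4).

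A region of SPI1, the gene of the myeloid and B cell factor PU.1, fell. It lies inside the gene, 60 bp from one end, and the start of SPI1 was not given. The region measured 3.4 and 3.03 in the controls and 1.04 and 1.22 in the PHF19 libraries. The difference was -1.48 (SE 0.22, adjusted p = 3.5e-09 in limma). On the B cell list, 14.3% of regions rose and 7.14% fell, beside 8.14% and 2.89% of all gene-near regions. BLK, a Src-family kinase of B cells, rose by 0.97 in a raised stretch and stood 0.47 above it (adjusted p = 0.074 in limma). The third call among 14 regions of the B cell list was SPIB, at 0.41, which was lost without PHF19 overexpression (adjusted p = 0.29), IFN empty vector (0.33) or IFN PHF19 overexpression (0.41).

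Interferon-stimulated genes were called about as often as gene-near regions at large. Of 46 regions, 4 rose (8.7%) and 2 fell (4.35%), beside 8.14% and 2.89%, with a median of 0.01 (-0.11 without the prefix and 0.11 with it). IRF1, GBP4, IDO1 and IFIT2 rose, and SOCS3 and ISG20 fell. Without empty vector, the calls at IDO1 (adjusted p = 0.47), IFIT2 (0.61) and ISG20 (0.37) were lost. GBP4, an interferon-induced GTPase, measured 0.84 and 1.64 in the controls and 1.98 and 2.63 in the PHF19 libraries, a difference of 0.99 (SE 0.24), a call lost without empty vector (adjusted p = 0.4). SOCS3, a brake on cytokine signalling, fell by 0.45, a call lost without empty vector (0.21), PHF19 overexpression (0.4) or IFN PHF19 overexpression (0.26). Of 15 MHC class II regions, 0 rose and 1 fell, at CD74, the invariant chain, by 0.55. That call was lost without PHF19 overexpression (adjusted p = 0.74), without IFN PHF19 overexpression (0.73), without centring (0.45) and with the local median removed, where CD74 was at -0.22 (0.27).

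Signalling lists were called at shares near or above those of all gene-near regions (8.14% higher and 2.89% lower). Of 28 regions of IL6 and JAK-STAT genes, 3 rose (10.7%) and 1 fell (3.57%), and 9 rose without empty vector. IL6R, the receptor for the main growth factor of myeloma cells, rose by 0.91 (SE 0.15, adjusted p = 2.6e-07 in limma), from 8.26 and 6.33 to 12.2 and 14.5. PTPN6 and JAK1 rose as well, and SOCS3 was the fall. PTPN6 was not called with the local median removed (0.31, adjusted p = 0.21), nor JAK1 without IFN PHF19 overexpression (adjusted p = 0.14) or IFN empty vector (0.084). Of 31 regions of NF-kappaB and TNF receptor genes, 3 rose (9.68%), TNFRSF1A and IKBKB among them, and 1 fell (3.23%, TNFRSF13B). TNFRSF1A, the receptor of tumour necrosis factor, measured 0.475 and 0.44 against 1.43 and 1.65, a difference of 1.78 (SE 0.3, adjusted p = 1.9e-07). IKBKB was at 0.17 with the local median removed (adjusted p = 0.49).

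Over all gene-near regions 8.14% rose and 2.89% fell, the shares to set beside the 2 lists here. Of 40 regions of AP-1 and immediate early genes, 3 rose (EGR3, NR4A1 and DUSP1) and 3 fell (EGR2 and both regions of DUSP6), 7.5% in each direction. These encode transcription factors and phosphatases that respond early to stimulation. None of the 6 kept its call without each library in turn: without PHF19 overexpression, 0 regions of the list were called. With the local median removed, EGR3 was at 0.29 (adjusted p = 0.097), the DUSP6 regions were at -0.17 and -0.19 (0.37 each) and DUSP1 turned from 0.49 to -0.07 (0.75), while NR4A1 and EGR2 kept their calls. Of 20 regions of adhesion and homing genes, 3 fell (15%; F2R, ITGB7 and CXCR4) and 0 rose. Without empty vector 2 rose and 2 fell, and without IFN PHF19 overexpression 0 were called. ITGB7, the integrin beta 7 subunit, measured 8.59 and 7.95 against 5.98 and 4.95, a difference of -0.57 (SE 0.15), a call lost without IFN PHF19 overexpression (adjusted p = 0.45). CXCR4 was lost there too (0.38), without empty vector (0.36) and without PHF19 overexpression (0.2).

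Of 35 regions of myeloma oncogenes and tumour suppressors, 5 rose (14.3%, beside 8.14% of all gene-near regions) and 0 fell, the rises including 2 at FGFR3 and 1 each at NSD2 and CDKN1B. FGFR3, the receptor kinase next to NSD2 on chromosome 4, rose by 1.05 at its start and stood 0.48 above its raised stretch (adjusted p = 0.12). Each of these 4 regions lost its call without IFN empty vector (adjusted p from 0.064 to 0.38) and with the local median removed (from 0.12 to 0.85). In all, 9 regions of the list rose without empty vector, 2 rose without IFN empty vector, and 1 rose and 2 fell with the local median removed. Of 47 cell cycle regions 2 rose (FOXM1 and CHEK1) and 0 fell, and of 27 apoptosis regions 1 rose (TNFRSF10B). Neither list held a call with the local median removed: CHEK1 turned to -0.08 (adjusted p = 0.75), FOXM1 was at 0.13 (0.59) and TNFRSF10B at 0.06 (0.84). None of the 3 was called without PHF19 overexpression, with adjusted p of 0.41, 0.096 and 0.11.

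Lists of genes that all cells use set the background. Of 59 regions of ribosomal protein genes, 1 rose (RPL7) and 1 fell (RPS14), 1.69% each, beside 8.14% and 2.89% of all gene-near regions. Of 41 housekeeping regions 1 rose (2.44%, PSMB4), and of 38 cereblon and proteasome regions 2 rose (5.26%, CSNK1A1 and PSMB4). Of 33 regions of the unfolded protein response 1 fell (3.03%, PPP1R15A). Their medians lay between -0.1 and -0.02. Each of these calls was lost without PHF19 overexpression, and housekeeping regions had 6 higher calls without empty vector and 3 lower without IFN empty vector. The 4 regions of T and NK cell markers had no call, SPI1 was the call among 3 myeloid marker regions, and of 7 stromal and epithelial regions PDGFRA rose by 1.53 and 2 at VIM fell.

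The distal regions described here are those with the smallest p among called regions with a mean height of at least 1 per M, an order that is not that of size. Among the falls, a region 446512 bp from ID2, an inhibitor of helix-loop-helix factors and the nearest gene, lies on chromosome 2 at 8234340 to 8235544. It measured 21.1 and 20.1 in the controls and 4.99 and 3.79 in the PHF19 libraries, a difference of -2.21 (SE 0.15, 4.64-fold, adjusted p = 1.2e-42 in limma). Its surroundings did not fall, with a local median of 0.22. A region 42586 bp from TOP3B on chromosome 22 measured 9.43 and 7.34 against 1.32 and 1.53, a difference of -2.52 (SE 0.18), with a local median of -0.02. The 2 groups were several-fold apart at both regions.

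More distal falls lay close together on chromosome 5. The regions inside SV2C (76303702 to 76304601), 2181 bp from IQGAP2 and inside CRHBP fell by 2.61, 2.3 and 1.95. The SV2C region measured 11.4 and 10.9 against 1.54 and 2.08 (SE 0.16, adjusted p = 4.6e-54 in limma). The local median was -1.01 to -1.03 at these regions, as it was beside F2R, and with it removed they were at -1.59, -1.28 and -0.95. A region 341175 bp from MED10, also on chromosome 5, fell by 1.91 with a local median of -0.42.

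Among the distal rises with the smallest p, most started from low heights. A region inside GRAMD1B, a sterol transfer protein, on chromosome 11 (123430031 to 123431303) measured 0.914 and 0.683 in the controls and 3.51 and 4.4 in the PHF19 libraries, a difference of 2.34 (SE 0.23, adjusted p = 2.6e-21 in limma). A region inside LRRC4C measured 0.731 and 0.501 against 2.85 and 3.36, and one inside FOXP1, a forkhead factor of B cell development, measured 0.731 and 0.349 against 2.69 and 2.56. These differed by 2.38 and 2.41, with local medians of -0.21 and -0.04. A region inside YWHAQ, a 14-3-3 protein gene, rose by 1.68, from 1.57 and 2.44 to 4.72 and 8.06. A region inside RANBP17 on chromosome 5 rose by 1.84 in a raised stretch with a local median of 0.64. One 314270 bp from KIF4B, on the same chromosome, measured 0.694 and 0.895 against 3.9 and 3.11. No named distal call was lost under any setting that tested its region, but these regions were chosen for a small p in the same data. Regions with local medians past 0.3, such as the one inside SV2C, were not tested in the setting that drops them.

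Part of the calls lay in long stretches of chromosome that moved as a block. Heights were not corrected for DNA copy number, whose part in these stretches was not tested. Of 506 bins of 5 Mb with at least 20 regions, 39 had a median above 0.3 in both pairs and 11 had one below -0.3 in both. The raised bins held 7.09% of the regions and 32.1% of the higher calls, and the lowered bins held 1.37% of the regions and 8.41% of the lower calls. In the bin described next, gene-near and distal regions moved alike. On chromosome 5 from 75 to 80 Mb, 49 of 63 regions fell and 0 rose, with a median of -0.9 (-0.92 without the prefix and -0.87 with it), -0.77 for gene-near and -0.93 for distal regions. FOXD1, F2R and AP3B1 lie in this bin or in the one from 70 to 75 Mb, where 36 of 57 regions fell.

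Neighbouring bins could move in opposite directions. On chromosome 4 from 45 to 50 Mb, 28 of 42 regions fell, with a median of -0.84. From 50 to 55 Mb, 15 of 25 regions rose and 0 fell, with a median of 0.66, and from 55 to 60 Mb the median was 0.6. The first 5 Mb of chromosome 4, which hold FGFR3, NSD2, PCGF3 and MSX1, had 64 of 106 regions higher and 0 lower, with a median of 0.62 (0.48 without the prefix and 0.67 with it).

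Whole chromosomes differed as well. On chromosome 8, 27.1% of 1527 regions rose and 4.45% fell, with a median of 0.33, and the higher share was 36.7% of gene-near and 24% of distal regions. On chromosome 17, 3.27% rose and 7.03% fell. On chromosome 5, 19.7% rose and 19.3% fell.

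The local stretches bear on the balance of calls. With the local median removed, 1912 regions rose and 3389 fell, so that higher calls were 36.1% of all calls, against 52.4% before. Gene-near calls were then 461 higher and 345 lower (57.2% higher, against 73.8% before), and distal calls 1451 higher and 3044 lower (32.3% higher, against 47.8%). Of the 858 gene-near regions that rose, 352 were still called, as were 197 of the 304 that fell. Of the distal regions, 1258 of 2526 that rose and 2394 of 2764 that fell were still called. The distal falls were thus retained most often, and they also exceeded the gene-near falls in share at matched height, 25.5% against 3.16%.

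**Figure D5:**
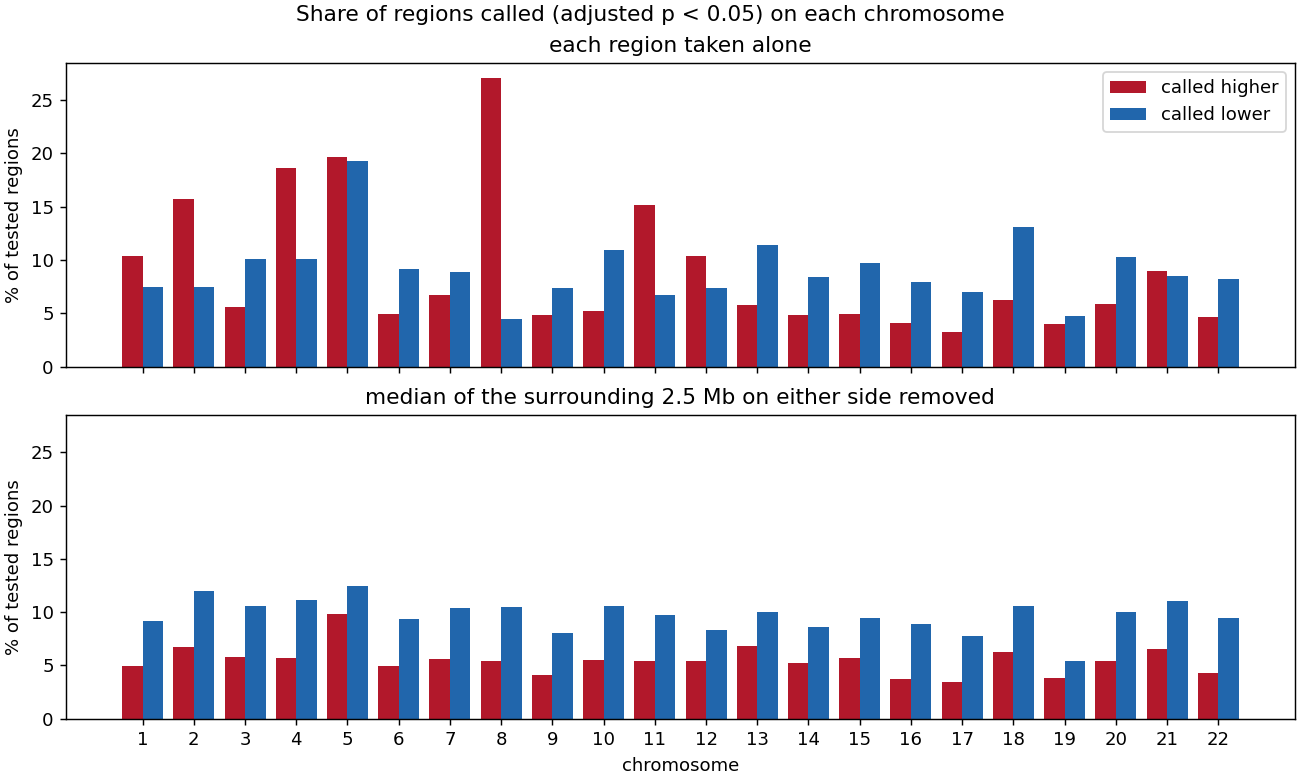
Percent of tested regions called higher (red) and lower (blue) on each of chromosomes 1 to 22, with each region taken alone (upper panel) and with the median of the regions within 2.5 Mb on either side removed (lower panel). The 27.1% of higher calls on chromosome 8 in the upper panel are not seen in the lower one, where lower calls exceed higher ones on all 22 chromosomes.

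Promoter sequence differed between start regions that rose and those that fell. A promoter window of 300 bases, 250 before to 50 after the start, was available for 15100 genes, and 8699 of their starts lay in a tested region. The median number of CpG was 29 in the 528 windows of regions that rose, 23 in the 189 of regions that fell, 27 in the 7982 not called and 22 in all windows. Windows with under 10 CpG made up 8.52% of those that rose, 19.6% of those that fell and 4.96% of those not called. By class, regions with 0 to 4 CpG in the window rose in 11.2% and fell in 14.3% of 161 cases, while those with 25 or more rose in 6.4% and fell in 1.57% of 5295. The CpG-poor windows were also in lower regions, with a median height of 3.53 against 7.95 per M. With the local median removed, the medians were 29 in windows that rose and 20 in windows that fell.

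Short motifs were counted in the same windows, on both strands, as letters and not as bound sites. CCAAT, the box of NF-Y, was present in 25.6% of windows that rose, 37.0% of those that fell and 38.6% of those not called, against 36.0% of all windows. CCGGAAG, a site of ETS factors, was present in 14.4%, 15.3% and 22.6%, against 14.4% of all. GGGCGG, the GC box, was present in 75.8%, 64.6% and 74.5%, against 58.9% of all. TGANTCA, the AP-1 site, was present in 4.92%, 5.29% and 3.51%, against 5.7% of all, and 1 lies in the IL23A window. TGACGTCA, the cyclic AMP response element, was present in 3.22%, 4.76% and 3.73%, against 2.65% of all, and CACGTG, the E-box of MYC, in 11.6%, 11.6% and 10.9%, against 8.77% of all. CACCTG, an E-box of other helix-loop-helix factors, was present in 20.5%, 16.4% and 17.6%, and in 3022 of all 15100 windows. The interferon response element was present in 2.65%, 2.65% and 2.78%, against 3.17% of all, and the NRF1 site in 1.52%, 2.65% and 2.87%, against 1.77% of all. The ETS site, the GC box, the cyclic AMP response element, the E-box of MYC and the NRF1 site each contain a CpG.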

How the data were processed

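Peak lists of 4 AMO1 ATAC-seq libraries, 1 for each vector and prefix, were grouped by their labels. Each list holds MACS2 2.1.2 peaks of a single library, called by the authors with no control, with duplicates kept and at a q of 0.01, per the file headers. Per the submitters' processing notes, Trimmomatic 0.38, bcl2fastq 2.17, DiffBind and hg38 were used. No aligner or Tn5 shift is stated in the sources. The pileup is a signal, the whole number of fragments over a summit, deposited without scaling. Fold enrichment (a ratio to local background), -log10 p-value and -log10 q-value were deposited too, and of these the -log10 q-value was used to filter peaks in an alternative. Depth was 16.4 to 65.9 M (mega) fragments, and the lowest peaks had 8 to 16 fragments. Kept duplicates are not independent molecules.

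Peaks on chromosomes 1 to 22 were merged where they overlapped, and 37044 of 71853 regions, without a peak in all 4 libraries, were left out of the fit. Centred log2 heights were fitted in limma 3.58.1 (R 4.3.3) with vector and prefix as terms, 1 residual degree of freedom and a moderated, height-dependent variance. The prior degrees of freedom were infinite, so regions of one height share one spread. Genes came from a RefSeq table (GRCh38.p14, 19122 protein-coding genes), of which 15100 had a promoter row with strand and start. Named are PHF19; the 12 gene-near and 6 distal regions per direction with the smallest p among called regions with a mean height of at least 1 per M and the same direction in both pairs; and 2 members of each list per direction (4 for Polycomb lists). Other called list members were named after their values were seen. The members, the 22 lists and the alternatives were chosen with earlier results of these data known. The steps were tested on simulated data, where 1.5% of log2 changes of 0.5 were recovered, 65.5% of changes of 1 and 99% of changes of 2. A region that was not called may therefore still have changed by a small amount. Some genes that these rules name are not reported here.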

Additional observations from a re-analysis of the deposited data

Results flagged for a closer look

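The median difference of gene-near regions went in opposite directions in the pairs, -0.06 without the prefix and 0.13 in the IFN-prefixed pair. The difference between the pairs was not tested, since each pair has 1 library per vector. The same held for 12 of the 19 gene lists with 10 or more regions, each below 0 without the prefix and above 0 with it. The medians were -0.2 and 0.13 for housekeeping genes, -0.14 and 0.07 for ribosomal protein genes, -0.16 and 0.11 for cereblon and proteasome genes, -0.16 and 0.09 for the unfolded protein response, and -0.08 and 0.07 for cell cycle genes. They were -0.15 and 0.13 for AP-1 and immediate early genes, -0.14 and 0.1 for NF-kappaB and TNF receptors, -0.04 and 0.25 for IL6 and JAK-STAT genes, -0.11 and 0.11 for interferon-stimulated genes, and -0.04 and 0.07 for apoptosis regulators. They were -0.09 and 0.15 for PRC1 genes and -0.01 and 0.15 for myeloma genes. The lists lie in gene-near regions of the same 4 libraries, so these are not separate observations.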

How the results depend on the processing

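Depth, vector and, in the IFN-prefixed pair, the project folder named in 1 header cannot be told apart, and weaker peaks could be called in the deeper controls. The labels give no replicate numbers, so the libraries were paired by the prefix alone, through the prefix term of the fit. Of the 96 called regions that the naming rule or the gene lists give, 40 kept direction and call under every setting, and 3 reversed, each with the local median removed (NSD2 at -0.05, CHEK1 at -0.08 and DUSP1 at -0.07). These counts cover only the settings that tested a region. With regions kept where the local median was within 0.3 of 0, 41 called regions kept their call, 2 lost it and the others were not tested. The cause of the changes below was not tested.

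Counts below are without empty vector, PHF19 overexpression, IFN-prefixed empty vector and IFN-prefixed PHF19 overexpression in turn, fitted without the prefix term. Higher regions numbered 2086, 2332, 1422 and 2009, and lower regions 1343, 1853, 1924 and 2146. Gene-near regions higher were 1164, 339, 352 and 440, and lower 120, 129, 447 and 121. Distal regions higher were 922, 1993, 1070 and 1569, and lower 1223, 1724, 1477 and 2025. The gene-near minus distal median ranged from -0.14 to 0.12. Without centring, 1951 regions were higher, of which 348 gene-near and 1603 distal, and 145 gene-near regions were lower. With the local median removed, 1912 were higher, 461 gene-near and 1451 distal. With regions kept where the local median was within 0.3 of 0, an alternative chosen after the data were seen that tests fewer regions, 1556 were higher, 318 gene-near and 1238 distal, 174 gene-near regions were lower, and 39.5% of calls were higher. With a mean height of at least 2 per M, also added later, 1328 gene-near and 1491 distal regions were higher. With gene-near widened to 5000 bp, 573 gene-near regions were lower. Robust moderation, also added later, kept each of these counts within 1.5 times its value, as did the height trend, weights, pseudocount, prefix term, height of 1, stricter q and larger overlap.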

Other observations

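Regions with a peak in both libraries of one vector and in neither of the other enter no test. There were 420 such regions with PHF19 overexpression (32 gene-near, 12 with a height of at least 2 per M) and 6184 with the empty vector (306 gene-near, 364 of that height). The median height was 0.772 and 0.695 per M, near the lowest peaks of the shallower PHF19 libraries, and the part of depth in the excess was not tested. Named here are the 5 tallest gene-near regions of each kind by the lower of their 2 heights.

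With the empty vector, the tallest gene-near region was at IKZF3, the Aiolos gene, which encodes a lymphoid factor that cereblon-binding drugs degrade. The region lay inside a gene, 181 bp from one end of IKZF3, on chromosome 17 at 39757896 to 39758584. It measured 8.66 without the prefix and 7.98 with it, and neither PHF19 library had a peak. Regions at HYAL2 (6.98 and 7.37), BHLHE40 (5.96 and 5.78), TXK (5.55 and 5.51) and ZFTRAF1 (5.3 and 4.72) followed. BHLHE40 encodes a helix-loop-helix repressor and TXK a Tec-family kinase of T cells. The tallest distal one, nearest to TNIP1, a brake on NF-kappaB signalling, measured 9.54 and 10.3.

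With PHF19 overexpression, the tallest gene-near region was at RIPK1, a kinase of cell death and inflammatory signalling, with 2.74 and 3.24 per M. TSPAN4 (3.29 and 2.44), SPOCK1 (2.03 and 2.2), IL17RE (2.52 and 1.77) and DOK7 (1.65 and 1.77) followed. The tallest distal regions after the one inside PHF19 were nearest to FTH1, the ferritin heavy chain gene (3.46 and 3.85), and to GABRP (2.3 and 2.38). A region nearest to ID2, at 8238841 on chromosome 2, measured 2.08 and 4.27. It lies 442021 bp from the gene, on the same side as the distal region near ID2 that fell.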
